A study of Drosophila melanogaster with 3 samples.

Results

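The peaks described here are the ORC2 peaks on the X chromosome arm of ML-DmBG3-c2 (BG3) cells, leaving out the sequence beside the centromere. They were chosen by position alone, as the peaks of the series list on chromosome X with a midpoint at or below 20400000 on FlyBase release 5 coordinates. This gave 731 of 4477 peaks, or 16.3% of the series list. The lists of the ChIP replicates held 1484 of 8494 peaks (replicate 1) and 1053 of 5905 peaks (replicate 2) in the same part of the X. Arms 2L, 3L and 3R, each without its own 2 Mb beside the centromere, stood as the reference with 729, 921 and 978 peaks of the series list. The last peak inside the limit was X at 20396118 to 20396228, with a score of 5.37, and the next one outside was at 20561591 to 20561772, with a score of 3.57. Beyond the limit lay 35 further X peaks of the series list.

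BG3 is an established Drosophila melanogaster line derived from the central nervous system of the third instar larva, with the genotype y v f mal; the labels give its sex as unknown. Chromatin was taken from asynchronous cultures, so the cells were in all phases of the cycle. The study named 2 ChIP libraries, made with a crude rabbit polyclonal serum raised against full-length ORC2, and 1 input DNA library, for which no peak list was used here. The sample titles mark the ChIP libraries as separate extractions. Nothing in the labels ties them to separate cultures, so the spread between them may be technical.

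ORC2 belongs to the origin recognition complex (ORC), a ring of proteins that binds chromatin and loads the MCM helicase at sites where DNA replication can start. In animals the complex does not rely on a fixed DNA sequence and is found mostly in open, nucleosome-depleted chromatin, often near active promoters. The fly X is set apart from the autosomes in males, where a single X is hypertranscribed by the dosage compensation complex and carries high histone acetylation along its active genes.

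Each X peak of the series list spanned overlapping peaks of both replicates. All 731 covered the joint extent of the replicate peaks beneath them, and in 728 the score was the mean of the replicate scores within 0.0001. In 707 of them 1 peak of each replicate was joined. The other 24 joined more than 2 peaks (3.28%, against 2.74% on 2L, 1.74% on 3L and 3.27% on 3R). Where 1 peak met 1 peak, the replicate 2 peak lay wholly inside the replicate 1 peak in 295 cases, the reverse held in 77, and 335 pairs were staggered. The midpoints of the replicates lay a median of 22 bp apart, and 90% of them lay within 87.5 bp. The median width of the sites in the series list was 183 bp (quartiles 124 and 297 bp), so these offsets were small beside the width of a site.

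The first question was how often an X peak of one ChIP library had a partner, a peak overlapping it by at least 1 bp, in the other. Replicate 1 had partners for 734 of its 1484 X peaks, or 49.5% (95% exact interval 46.9 to 52.0), where 52.9% of its peaks genome-wide had one. The corresponding replicate 1 values were 55.3% on 2L, 53.6% on 3L and 55.8% on 3R. Replicate 2 had partners for 754 of its 1053 X peaks, or 71.6% (68.8 to 74.3), where 77.6% of its peaks genome-wide had one. In that library 2L stood at 78.3%, 3L at 80.2% and 3R at 81.9%. The X lay below all 3 autosomal arms in each library. The difference from their mean was -5.46 percentage points in replicate 1 and -8.52 in replicate 2, a mean of -6.99 ± 2.17 (SD, n = 2; exact sign-flip permutation over the replicates, two-sided, p = 0.50). That p is the smallest that 2 replicates can give, so no difference between the X and the autosomal arms could pass a threshold of 0.05 here. The 2 percentages also count the same overlaps from either side, so they are not independent measurements. Neither the SD nor the sign flip therefore measures a spread between independent replicates, and the lower X value in both libraries is not seen independently in each. The exact intervals cover counting error only, as though each peak were an independent draw, which clustered peaks are not.

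Among peaks of like width, the percentage with a partner was also lower on the X than on the pooled autosomal arms. This comparison by class was described and not tested. Peaks of the 4 arms were sorted into 5 classes of equal size by width, and the X stood below the pooled autosomal arms in all 5 classes of both replicates. It did not stand below each single arm in every class. In replicate 1 it lay above 2L at 45 to 87 bp (27.4% against 26.5%). At 235 bp or more (89.4%) it lay above 2L (88.6%) and 3L (89.0%). In replicate 2 it lay above 2L at 83 to 122 bp (85.4% against 85.2%). In replicate 1 the gap was widest for peaks of 133 to 234 bp, of which 75.0% had a partner on the X (69.5 to 80.0), against 83.5% on the autosomal arms (81.0 to 85.7). It was under 1 percentage point for peaks of 45 to 87 bp (27.4% against 28.3%) and for peaks of 235 bp or more (89.4% against 90.3%). In replicate 2 the gap was widest for narrow peaks of 36 to 82 bp, with 56.1% on the X (49.5 to 62.5) against 73.1% (69.5 to 76.4). Among replicate 2 peaks of 198 bp or more, 95.2% had a partner on the X (91.1 to 97.8), against 99.3% on the autosomal arms (98.3 to 99.8). The classes that carried most of the gap were thus not the same in the replicates. Split instead by score, ranked within each arm, the gap did not run one way in replicate 1. The lowest of the 5 classes of replicate 1 scores had partners for 37.2% of X peaks, against 32.1% on the autosomal arms, the next for 42.1% against 42.6%, and the highest for 57.1% against 74.8%. In replicate 2 the X stood below the pooled autosomal arms in all 5 score classes, with differences of -13.6 to -2.85 percentage points. In the highest of these classes the X (75.4%) nevertheless lay above 2L (74.3%).

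**Figure D1:**
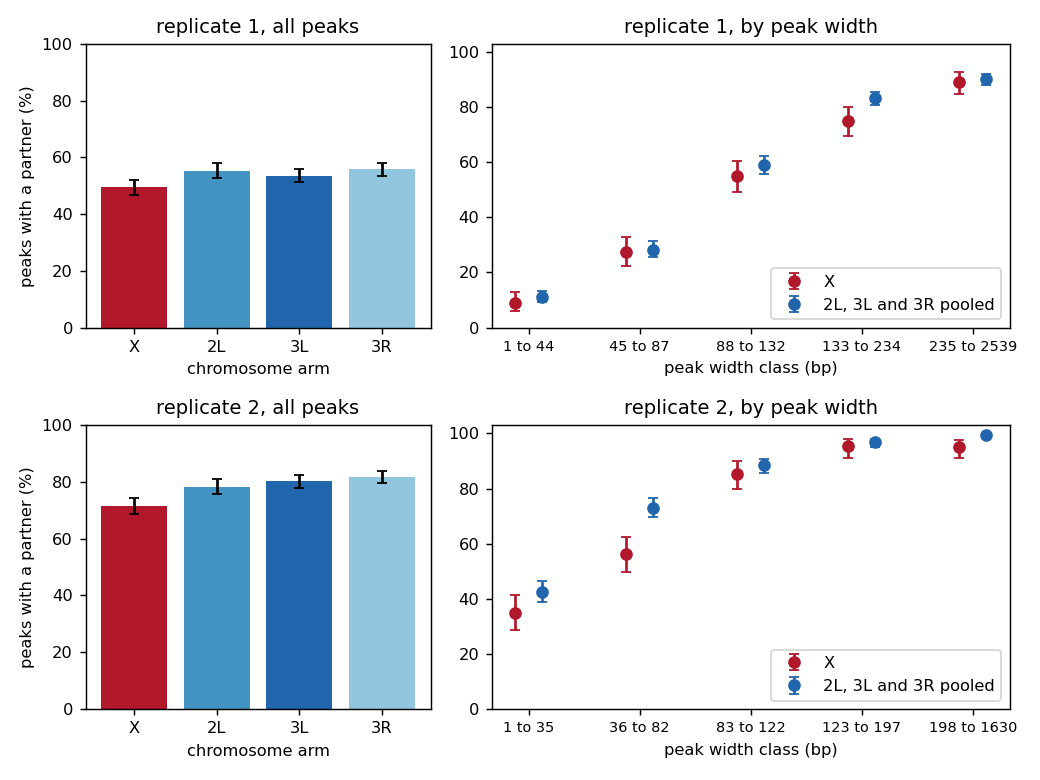
Percentage of peaks with a partner in the other replicate. Left panels give all peaks of each arm and right panels split them by peak width (bp), with X in red and the autosomal arms in blue; error bars are exact 95% intervals. The X stood at 49.5% in replicate 1 and 71.6% in replicate 2, below each autosomal arm, and below the pooled autosomal arms in each width class.

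Before scores are compared, their scale has to be considered, since the score is the authors' value per peak and its quantity is not named in the files. The scores turned out to be coarse, in steps that the X did not share with the autosomal arms. On the whole X, 60 replicate 1 peaks shared the single score 2.91156, and 35 more held 4.36733, which is 1.5 times as large. In replicate 1, 75.8% of X peaks had a score that another X peak also held, against 62.4% on 2L, 61.3% on 3L and 68.9% on 3R. In replicate 2 the values were 65.8% on the X, against 43.7%, 45.9% and 53.2%. Of the 259 repeated X scores of replicate 1, 1 occurred on any of the 3 autosomal arms, and of the 213 of replicate 2, 1 did. The autosomal arms kept apart in the same way, except that in replicate 2, 10 repeated scores of 2L and 14 of 3R were also found on another of the 4 arms.

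The X scores were also related to each other by simple ratios. In replicate 1, 63.6% of X scores equalled 2.91156 times a ratio of whole numbers with a denominator of at most 24, to the precision of the deposited values. None did so with the commonest score of any of the 3 autosomal arms in place of 2.91156. For the autosomal arms in replicate 1, the percentage was 34.0 to 37.7 with the arm's own commonest score. In replicate 2, 30.3% of X scores were such ratios of the commonest X score, 3.74375, and none were with the commonest score of an autosomal arm. The autosomal arms of replicate 2 gave 30.1% on 2L, 37.7% on 3L and 26.3% on 3R with their own commonest score, so the higher percentage of the X was seen in replicate 1 alone. How the authors scaled the score on each arm is not given in the files, so scores are ranked and compared within the X below. The median X score was 3.33 in replicate 1, against 2.78 to 2.85 on the autosomal arms, and 3.21 in replicate 2, against 2.84 to 3.15. The difference from the autosomal mean was 0.359 ± 0.208 (SD, n = 2; exact sign-flip permutation, two-sided, p = 0.50), and it cannot be told apart from a difference in scale.

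**Figure D2:**
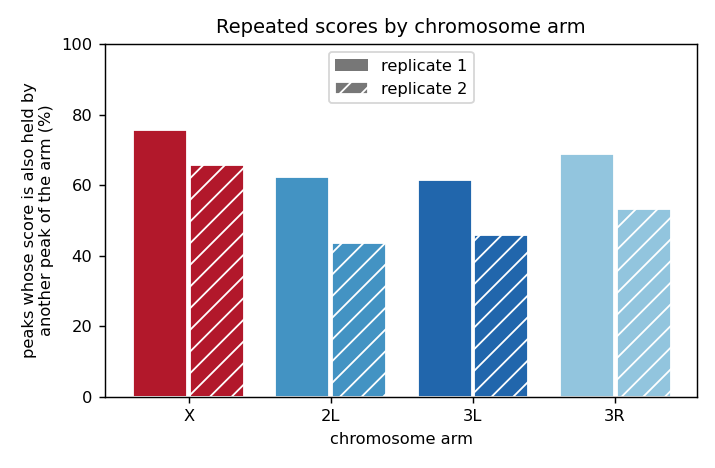
Percentage of peaks whose score was also held by at least 1 other peak of the same arm, for whole arms; plain bars are replicate 1 and hatched bars replicate 2. The X reached 75.8% and 65.8%, above each of the 3 autosomal arms in the same replicate.

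At the 731 shared X sites the replicates ranked the scores alike. Spearman's rho between the replicate scores was 0.781 over the 731 sites, which share their libraries and are not independent, beside 0.724 on 2L, 0.785 on 3L and 0.776 on 3R. Among the 365 X sites above the median score it was 0.501, beside 0.438 on 2L, 0.483 on 3L and 0.523 on 3R. That cut was made on the mean of the replicate scores themselves, which by itself tends to lower rho. Replicate 1 scores at the shared X sites had a lowest value of 1.56, a median of 3.56 and a highest value of 16.8. Replicate 2 scores had a lowest value of 1.49, a median of 3.36 and a highest value of 12.5. The replicate 1 score was the higher at 469 sites (64.2%), against 57.3% of sites on 2L, 68.0% on 3L and 45.1% on 3R. The ratio of replicate 1 to replicate 2 had a median of 1.08 (quartiles 0.931 and 1.27). The scores lay within 1.5-fold of each other at 659 sites (90.2%), against 91.6%, 91.5% and 93.7%, and differed more than 2-fold at 4. The scale of the score in each library is not given. Here and below, which replicate scored higher cannot be told apart from a difference in scale. Called widths ranked less alike (rho 0.600), and replicate 1 peaks were the wider at 534 sites (73.1%). Width and score were nearly unrelated over the series-list peaks of the X (rho 0.053).

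**Figure D3:**
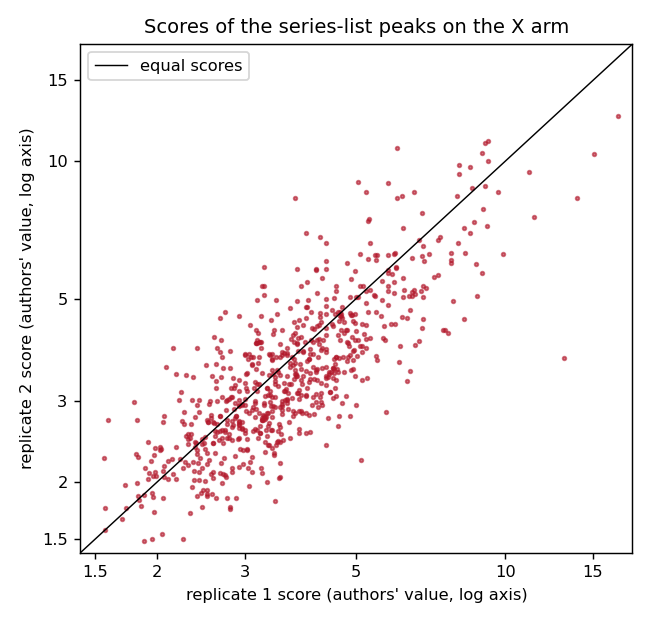
Replicate 1 score against replicate 2 score for each of the 731 series-list peaks on the X arm, on log axes; the line marks equal scores. The points follow the line (rho 0.781), with 469 of them on the side where replicate 1 is higher.

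The 10 highest-scoring X sites were ordinary in width, at 55 to 434 bp, and scored 8.50 to 16.8 in replicate 1 and 7.57 to 12.5 in replicate 2. The highest was X at 6004018 to 6004187, which scored 16.8 in replicate 1 and 12.5 in replicate 2 and had its nearest shared neighbour 32.6 kb away. The next, at 4593548 to 4593647, scored 15.04 and 10.3 and was called over 100 bp in replicate 1 but over 29 bp in replicate 2. It was followed by 19559933 to 19560134 with 13.95 and 8.29, and by 13534749 to 13534897 with 11.2 and 9.45. The order of the replicates was turned round at 7232205 to 7232259, with 9.22 and 11.1, and at 6909216 to 6909315, with 9.10 and 10.96. The same held at 1293007 to 1293348 (8.98 and 10.4), 14804192 to 14804282 (9.22 and 9.98) and 4319023 to 4319456 (8.50 and 9.72). The remaining site, 16480676 to 16480920, scored 11.4 and 7.57. Replicate 1 was the higher at 5 of the 10, and 5 of the 10 had no shared neighbour within 5 kb.

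Among the widest X sites, scores ranged on both sides of the X median of 3.49 in the series list. The widest, X at 1508320 to 1509846 (1527 bp), joined 2 peaks of each replicate, with mean scores of 2.52 and 2.19. The site at 16110581 to 16111832 (1252 bp) differed from it in being 1 nearly continuous call in each library, 1245 bp wide with a score of 5.97 in replicate 1 and 988 bp wide with a score of 5.16 in replicate 2. It also stood alone, with its nearest shared neighbour 27.7 kb away. The others were 4010944 to 4012089 (1146 bp; scores 2.14 and 2.25), 10638547 to 10639667 (1121 bp; 2.92 and 2.71) and 10651113 to 10652171 (1059 bp; 2.41 and 2.19). The last 2 were members of neighbouring clusters, of 4 and 5 sites. Wide sites tended to have company: 52.3% of the 88 X sites over 400 bp lay in clusters, as defined below, against 21.9% of the 105 sites of 100 bp or less.

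Along the arm, shared ORC2 sites were found in every 1 Mb bin. The 20 bins of full length, counted from the start of the chromosome, held a lowest count of 19 (14000001 to 15000000) and a highest count of 50, which was reached at 2000001 to 3000000 and again at 16000001 to 17000000. The neighbouring bin 15000001 to 16000000 was also low, with 25 sites, and the first bin held 22. The bin at 14000001 to 15000000 was the lowest of the 20 in each library too, with 49 replicate 1 peaks and 31 replicate 2 peaks. Across the 20 bins the count of shared sites followed the count of all replicate 1 peaks with a rho of 0.717 and of replicate 2 peaks with 0.906, both built in part from the same peaks. It followed the peaks without a partner far less, with a rho of 0.240 in replicate 1 and 0.298 in replicate 2. The distal side of the arm held 384 shared sites and the proximal side 347. In all replicate 1 peaks the sides held 743 and 741, and in all replicate 2 peaks 526 and 527, so neither library's own list leaned to either side.

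The bin at 11000001 to 12000000 stood out for peaks without a partner. It held 93 replicate 1 peaks, close to the highest count of 94, yet 35 of these had a partner (37.6%), and 25 of its 60 replicate 2 peaks had none. By contrast 61.7% of replicate 1 peaks at 16000001 to 17000000 and 61.1% at 7000001 to 8000000 had a partner. The percentage over the 20 full bins thus ran from 37.6% to 61.7% in replicate 1 and from 58.3% to 85.0% in replicate 2. The bin at 11000001 to 12000000 was the lowest of the full bins in both. The short last bin, 20000001 to 20400000, was lower still, at 33.3% of 36 replicate 1 peaks and 57.1% of 21 replicate 2 peaks.

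**Figure D4:**
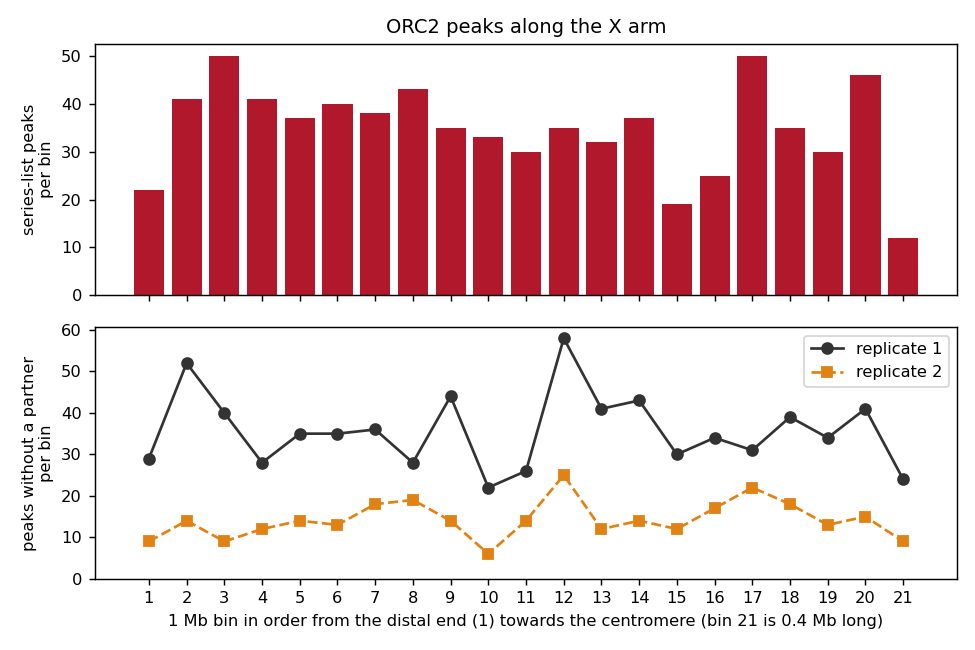
Upper panel, series-list peaks per 1 Mb bin of the X arm; lower panel, peaks without a partner per bin in replicate 1 (black) and replicate 2 (orange). Bins are numbered from the distal end, so bin 15 is 14000001 to 15000000, with 19 sites, and bins 3 and 17 are the highest, with 50; bin 12 has the most peaks without a partner in each replicate (58 and 25).

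Counts per 1 Mb varied less along the X than along the autosomal arms. The first bin of X, 2L and 3L begins before the first peak of the arm and was left out, which leaves 19 bins on the X. The coefficient of variation was 17.4% on the X in replicate 1, against 22.3% on 2L, 21.8% on 3L and 26.02% on 3R. In replicate 2 it was 19.3%, against 29.1%, 20.8% and 31.3%. The difference from the autosomal mean was -6.89 ± 1.27 percentage points (SD, n = 2; exact sign-flip permutation, two-sided, p = 0.50). The series list, which holds the shared peaks of both libraries, gave 21.4% on the X, against 31.1%, 24.6% and 33.8%. With the first bin counted, the X stood at 18.5% in replicate 1, against 23.3%, 23.7% and 26.02%, and at 21.1% in replicate 2, against 29.9%, 22.3% and 31.3%. The bins number 19 to 24 per arm, and this comparison was chosen after the data were seen.

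Density on the X lay within the range of the autosomal arms. It was 73.0 peaks per Mb in replicate 1, against 63.3 on 2L, 76.7 on 3L and 68.3 on 3R. In replicate 2 it was 51.8, against 45.7, 51.9 and 47.6. The difference from the autosomal mean was 3.48 ± 0.145 peaks per Mb (SD, n = 2; exact sign-flip permutation, two-sided, p = 0.50). In the series list the X stood at 36.0, against 34.9, 41.01 and 37.9, and the difference was -1.98. The series list holds shared peaks alone, and X peaks had a partner less often, as given above. Peaks without a partner were denser on the X than on each autosomal arm, at 36.9 per Mb in replicate 1, against 28.3 on 2L, 35.6 on 3L and 30.2 on 3R. In replicate 2 they stood at 14.7 per Mb, against 9.91, 10.3 and 8.65.

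Spacing between neighbouring X sites was uneven. The median distance between neighbouring midpoints was 10.7 kb and the mean was 27.8 kb. Neighbours were at most 1 kb apart in 11.9% of cases and 1 to 5 kb apart in 24.8%. Distances of 5 to 20 kb made up 26.2%, those of 20 to 100 kb 31.1%, and those over 100 kb 6.03%. Very close neighbours were rarer on the X in the series list, where 161 of 731 sites (22.0%) had another within 1 kb, against 27.4% (2L), 24.3% (3L) and 28.7% (3R). Within each replicate list the X lay within the autosomal range, at 38.1% against 37.1 to 40.5% in replicate 1 and 32.8% against 32.3 to 37.4% in replicate 2. The difference there was -1.38 ± 0.745 percentage points (SD, n = 2; exact sign-flip permutation, two-sided, p = 0.50). The series-list X value lay below all 3 arms, which neither full library list did, though both differed from the autosomal mean in the same direction. Median distances to the nearest neighbour were 1692 bp in replicate 1 and 2235 bp in replicate 2, and their difference from the autosomal arms was of opposite sign in the replicates (37.3 and -69.3 bp; mean -16.04 ± 75.4, SD, n = 2; exact sign-flip permutation, p = 1).

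**Figure D5:**
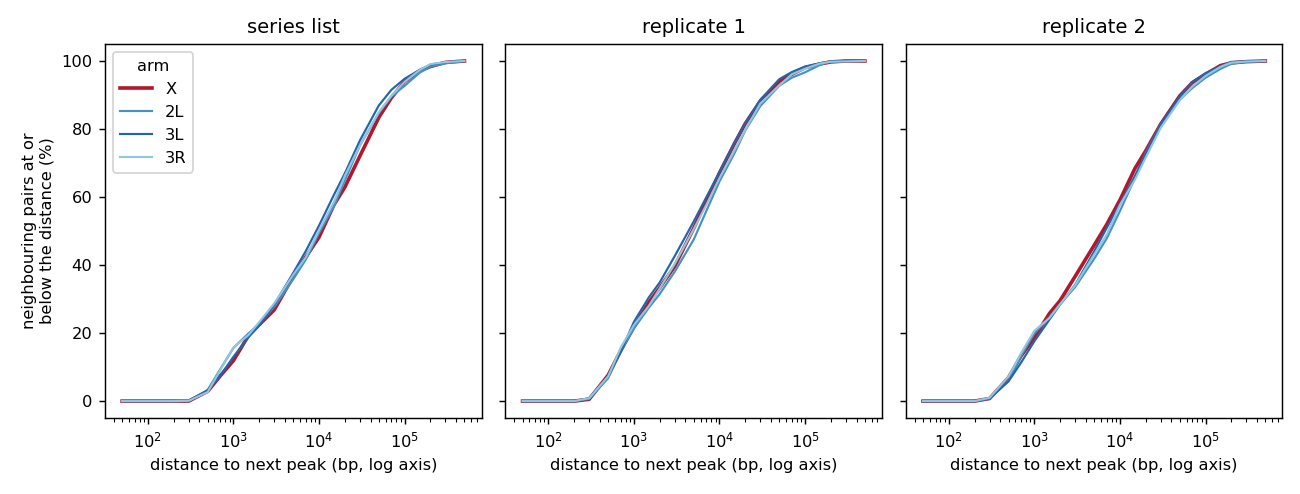
Cumulative percentage of neighbouring peak pairs at or below a given distance between midpoints (bp, log axis), for the series list and each replicate; X in red, autosomal arms in blue. In the series list the X curve lies below all 3 autosomal curves at 1 kb (11.9% of pairs) and from 20 to 70 kb; in replicate 2 it lies above them from 1.5 to 50 kb, with 45.8% of pairs within 5 kb against 41.8 to 44.0%.

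Shared X sites were grouped into clusters of at least 3, with neighbouring midpoints at most 5 kb apart. There were 58 such clusters with 233 sites (31.9%), together with 93 pairs and 312 sites that stood alone (42.7%). The clustered percentage was 31.4% on 2L, 32.9% on 3L and 32.9% on 3R. The largest X clusters held 7 sites, against 9 on 2L, 7 on 3L and 12 on 3R. In the lists of single libraries 51.5% of replicate 1 and 44.1% of replicate 2 X peaks lay in clusters, a difference from the autosomal arms of 2.20 ± 2.02 percentage points (SD, n = 2; exact sign-flip permutation, two-sided, p = 0.50). Clustered X sites were wider than those alone, with a median of 235 bp (quartiles 149 and 367) against 168 bp (117 and 254). The same order held on the autosomal arms, at 207 against 184.5 bp on 2L, 211 against 168.5 bp on 3L and 206 against 173.5 bp on 3R. The scores of clustered and lone X sites were alike, with medians of 3.54 and 3.55.

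The shortest of the 4 clusters with 7 sites was X at 3634867 to 3643100, which spanned 8234 bp. Its sites scored 2.43 to 4.42 in replicate 1 and 2.25 to 3.44 in replicate 2, and replicate 1 scored the higher at each of the 7. All 7 replicate 1 peaks in it had a partner, and 1 of 9 replicate 2 peaks did not. A pair of clusters lay beside each other, at 7180199 to 7188191 with 6 sites and at 7193753 to 7202041 with 7. They were among the higher-scoring ones, with site scores up to 8.01 and 8.95. The cluster at 9578374 to 9588176 held 7 sites, with scores from 2.70 to 7.36. That at 12543562 to 12563930 was the most drawn out of these 5, with 7 sites over 20369 bp, and it also held 4 replicate 1 and 2 replicate 2 peaks without a partner.

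In fixed windows of 100 kb, the counts on the X ranged up to 14 shared sites. The fullest windows were 3600001 to 3700000 with 14, 4200001 to 4300000 with 13, and 1900001 to 2000000 and 10600001 to 10700000 with 12 each. They also held 4, 6, 12 and 5 replicate 1 peaks without a partner, in that order. Of the 204 windows, 22 held at least 8 sites, and these carried 216 of the 731 sites (29.5%). Sites in such windows had a median score of 3.34 and a median width of 223 bp, against 3.63 and 177 bp for the 176 sites in windows with 1 to 3. The full windows of 2L, 3L and 3R also had wider and somewhat lower-scoring sites than their own sparse windows.

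Empty stretches took up much of the arm. No shared site lay in 28 of the 204 windows, and 11 of these held no peak of either replicate. Intervals of more than 100 kb without a shared site numbered 44 and covered 36.0% of the X, against 44.7% of 2L, 34.7% of 3L and 37.0% of 3R. The longest was X at 4834251 to 5216736 (382 kb), which held 9 replicate 1 peaks and 1 replicate 2 peak, the highest with scores of 9.03 and 9.09. The next, 14141766 to 14474511 (333 kb), lay in the sparsest bin and held 5 and 2. The gap at 9672782 to 9980418 (308 kb) had 2 replicate 1 peaks and none of replicate 2, and that at 19781496 to 20053102 (272 kb) had 4 and none. The gap at 7232260 to 7502336 (270 kb) opened right after the high-scoring site at 7232205 and held 2 and 3 peaks. A further one, at 173677 to 387458 (214 kb), held no replicate 1 peak and 1 replicate 2 peak of 7 bp; it ranked outside the 5 longest and was picked after its values were seen.

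Peaks without a partner were sparse in these long gaps, though gaps were chosen for lacking shared sites. In the 44 gaps they stood at 16.8 per Mb in replicate 1 and 5.19 per Mb in replicate 2, against 48.2 and 20.1 per Mb in the rest of the X. The same contrast held on each autosomal arm, with 14.5 to 16.02 against 39.4 to 46.0 per Mb in replicate 1 and 4.07 to 4.23 against 11.3 to 14.6 per Mb in replicate 2. Whether the sequence of each gap can be read uniquely was not tested.

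The 750 replicate 1 and 299 replicate 2 X peaks without a partner were narrower than the peaks with one. The median widths in replicate 1 were 62 bp without a partner and 160 bp with one, and in replicate 2 they were 37 bp without and 118 bp with. Very short intervals, of at most 30 bp, were 27.7% of those without a partner in replicate 1 and 44.8% in replicate 2. Their scores overlapped widely with those of the shared peaks: in replicate 1 the median was 3.14 without a partner (quartiles 2.55 and 4.10) and 3.56 with one (2.83 and 4.61), and in replicate 2 it was 2.92 without (2.34 and 3.74) and 3.36 with (2.64 and 4.28).

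Many of these peaks lay close to a shared site. The nearest shared site was within 1 kb for 148 replicate 1 peaks (19.7%) and 67 replicate 2 peaks (22.4%), and within 5 kb for 47.5% and 52.2%. These values were much like those of the autosomal arms, where 18.6 to 22.2% of replicate 1 and 23.2 to 26.9% of replicate 2 peaks without a partner lay within 1 kb. A distance of more than 50 kb was found for 26 and 11. Inside the clusters of shared sites were 51 replicate 1 and 25 replicate 2 peaks without a partner. The 25 made up 8.36% of the partnerless replicate 2 peaks of the X, against 2.42% on 2L, 8.66% on 3L and 5.38% on 3R. Some were near misses: 81 of the 750 replicate 1 peaks (10.8%, against 8.35 to 10.1% on the autosomal arms) had a partnerless replicate 2 peak within 500 bp, and 37 had one within 100 bp. At 3905133 to 3905194 the replicate 1 peak directly adjoined a replicate 2 peak at 3905027 to 3905132, with scores of 2.08 and 3.82. This pair was picked after its values were seen, as the closest of the 81.

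The 4 highest X scores of replicate 1 belonged to peaks without a partner: 8309404 to 8309455 scored 29.1, which is 10 times the commonest X score, 5829294 to 5829396 scored 25.8, 13483013 to 13483029 scored 21.8 and 18598079 to 18598172 scored 19.7. The nearest replicate 2 peak lay 3692 bp away from the first of them and 56415 bp away from the last. In replicate 1 the highest score of each autosomal arm belonged to a peak with a partner. In replicate 2 the highest scores of the X (17.1) and of 2L (48.3) belonged to peaks without a partner, and those of 3L and 3R did not. Of the 74 replicate 1 X peaks in the top 5% by score, 40 had a partner (54.1%, 95% exact interval 42.1 to 65.7). The top 5% of the autosomal arms, ranked within each arm, had partners in 81.8% of cases on 2L, 81.4% on 3L and 79.5% on 3R. In replicate 2, 36 of the 53 top X peaks had a partner (67.9%), against 56.3% on 2L, 58.6% on 3L and 68.9% on 3R. The X was thus below the autosomal arms for top scores in replicate 1 and within their range in replicate 2. The top X peaks of replicate 1 were also narrower, with a median width of 103.5 bp. The medians there were 176.5 bp on 2L, 160.5 bp on 3L and 164.5 bp on 3R. In replicate 2 the X median of 82 bp lay within the autosomal range. Narrow peaks had a partner less often, as given above. Whether the difference in replicate 1 held among top peaks of like width was not tested.

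At 1 place both libraries had a high-scoring peak that just missed its counterpart. The replicate 1 peak at 4580382 to 4580499 scored 12.5 and the replicate 2 peak at 4580515 to 4580517, 3 bp long, scored 14.98. The coordinates of their facing ends differed by 16. Both lay inside a cluster of shared sites, about 0.5 kb from the nearest. The other leading partnerless peaks of replicate 2 were at 20059981 to 20060018 with 17.1, 17349967 to 17350090 with 16.8, 15784208 to 15784213 with 12.8 and 15472244 to 15472245 with 11.1. Apart from the 124 bp peak with 16.8, these were 2 to 38 bp wide.

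Wide X peaks without a partner were few in replicate 2, but more than on the other arms. There were 9 of at least 200 bp on the X (3.01% of its peaks without a partner), against 1 on 2L (0.483%), 3 on 3L (1.30%) and 1 on 3R (0.448%). The widest, X at 8188297 to 8189196, was 900 bp long with a score of 2.38, and the nearest replicate 1 peak was 851 bp away. The next were 16168212 to 16168671 (460 bp, score 1.48) and 16334896 to 16335236 (341 bp, 1.80). Of the 9, 8 lay within 2 kb of a shared site, and 6 scored below 2.4, limits that were not planned. Of all 299 replicate 2 X peaks without a partner, 52.2% lay within 5 kb of a shared site, and the lower quartile of their scores was 2.34. Replicate 1 had 37 partnerless peaks of at least 200 bp on the X (4.93%), against 47 on 2L (7.95%), 55 on 3L (6.88%) and 41 on 3R (5.27%). The X share was thus the lowest there, and the higher X share was seen in replicate 2 alone. The widest of these were 10440692 to 10441115 (424 bp, score 3.92), 5411149 to 5411553 (405 bp, 2.09) and 1821725 to 1822115 (391 bp, 2.77). The first of them lay 38.6 kb from the nearest shared site.

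Peak widths themselves differed little between the X and the autosomal arms. The median was 100 bp on the X in replicate 1, against 112 bp on 2L, 100 bp on 3L and 108 bp on 3R, and 93 bp in replicate 2, against 100, 99 and 101 bp. The difference was -6.83 ± 0.236 bp (SD, n = 2; exact sign-flip permutation, two-sided, p = 0.50). Windows of 100 kb without any peak, leaving out those that begin before the first peak of an arm, made up 6.40% of the X in replicate 1, against 9.13%, 5.80% and 8.56%, and 9.85% in replicate 2, against 15.4%, 7.14% and 10.9%. That difference was -1.36 ± 0.0992 percentage points (SD, n = 2; exact sign-flip permutation, two-sided, p = 0.50), with the X inside the autosomal range in both libraries.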

How the data were processed

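ORC2 ChIP-seq of BG3 cells was described from 3 deposited peak lists, 1 for each of 2 ChIP libraries and 1 for the series. Peaks were called with PeakSeq on FlyBase release 5, per the file headers and source fields; for the aligner, read depth, thresholds and use of the input the status is: not given in the sources used here. Each deposited score is the authors' value per peak, with no stated unit. Depth is unknown, so no interval stands behind a score. Scripts ran in Python 3.11.15 with pandas 2.3.3, scipy 1.17.1, numpy 2.4.6 and matplotlib 3.10.9, and were tested on simulated lists. Partners overlap by at least 1 bp. The limit beside each centromere lies 2 Mb from the outermost peak, rounded to 0.1 Mb, and length runs from there to the first peak at the other end. X minus the mean of 2L, 3L and 3R was taken within each replicate and tested by exact sign flips; shares have Clopper-Pearson intervals. Regions named are the 10 highest-scoring and 5 widest X sites, 5 largest clusters, 5 longest gaps, 3 fullest windows, and 5 highest-scoring and 3 widest partnerless peaks per replicate; a window tied with the third is also named, and others are identified as picked later. The members and lists were chosen with earlier results of these data known. The study of score steps, the variation of 1 Mb counts and the comparison by width class, top scores and window filling were added after seeing the data. Alternatives covered arm limits, score, width and overlap thresholds, reference arms, linking distances and windows. No genome or annotation of release 5 was used here, so genes and sequences at the peaks were not analysed.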

Additional observations from a re-analysis of the deposited data

How the results depend on the processing

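The X minus autosome differences in percentage with a partner, median width, median score, percentage in clusters (series list aside), and variation of 1 Mb counts kept the sign of their mean over the replicates used under every alternative run for them. None passed a threshold, since 2 replicates cannot. With 2L left out, the percentage in clusters differed by -0.926 points in replicate 1 and 3.24 in replicate 2, so the replicates were of opposite sign there. The percentage with a partner differed by -3.92 points among peaks above the median score of their list, though there it was -8.51 in replicate 1 and 0.67 in replicate 2, where the X (71.1%) lay within the autosomal range (67.7 to 74.6%). That cut spans arms whose score steps differ. Above the median of their own arm, a setting added after seeing the data, it was -5.15 in replicate 1 and -7.07 in replicate 2. The X then lay below all 3 arms in replicate 1 (45.5%, against 48.5 to 52.8%) and in replicate 2 (65.9%, against 68.7 to 75.3%). The percentage with a partner differed by -7.51 with a reciprocal overlap of 50% and -5.64 with midpoints within 500 bp. Leaving a replicate out was no alternative for this percentage, since the other library decides which peaks have a partner. The values of -8.52 and -5.46 are those of replicate 2 and replicate 1 as given above. Using the series list turned the sign of density (-1.98 per Mb), of the median nearest distance (298 bp) and of the percentage in clusters (-0.54 points). Density also turned when bases covered were counted (-209 bp per Mb). Nearest distance turned with 4 Mb beside the centromere left out (148 bp) or 2L left out (41.5 bp), and ranged from -69.3 to 37.3 bp with a replicate left out. The percentage with a neighbour within 1 kb fell below all 3 arms in replicate 1 with peaks of at least 50 bp (32.4%, against 33.4 to 35.4%) and in replicate 2 with 4 Mb left out (31.9%, against 32.7 to 37.8%); it turned among peaks above the median score of their list (3.38 points), but not above the median of their own arm (-1.21, with replicate 1 also below all 3 arms), a setting added after seeing the data because score steps differ between arms. Empty windows turned with 2L left out (0.028 points) or windows of 200 kb (0.563). Among X sites above the median score, rho was 0.501 for scores and 0.642 for widths. The cut on the mean of the replicate scores by itself tends to lower the rho of scores, so that value is no check on the processing. The distal to proximal ratio was 1.11 in the series list and 0.998 to 1.003 in single replicates. The cause of these turns was not tested. The series list differs from the replicate lists in holding shared peaks alone. With a replicate left out, the differences ranged as follows: density 3.38 to 3.58 per Mb, width -7 to -6.67 bp, score 0.212 to 0.506, neighbours within 1 kb -1.90 to -0.851, clusters 0.771 to 3.62, empty windows -1.43 to -1.29 and variation of counts -7.79 to -5.99 points. Each difference was taken within a library, so it was already paired by replicate number, and no fit of ChIP against input could be made because no peak list of the input was used here. The read depth of either library is unknown, which limits every comparison of list lengths.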

Other observations

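The 2.02 Mb of the X beyond the limit, beside the centromere, held 75 replicate 1 and 61 replicate 2 peaks. Of these, 46.7% and 59.0% had a partner, against 49.5% and 71.6% in the part of the arm described above.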
